A study of Mus musculus with 53 samples.

Results

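Mouse embryonic fibroblasts (MEF) were set against cultured neural stem cells, to describe how expression differs between a connective tissue cell and a neural stem cell. Arrays were taken by their titles: 2 arrays of MEF and 2 of what the labels call neuronal stem cells, derived from NPc, which make 4 of the 53 arrays of the series. The other 49 arrays hold wild-type, Ezh2-null and Eed-null embryonic stem (ES) cells, cells differentiated from them, and cells marked by a Sox1-GFP or T-GFP reporter, and the wider study asked about loss of Ezh2 or Eed. These 49 arrays also enter the choice of probe sets, the filter and the estimate of the spread. Otherwise they only show where a level lies in the series. MEF are fibroblasts grown from mouse embryos, in general practice a mixed mesenchymal population. Both groups were kept in standard culture, per the growth protocol in the labels, and no allele, transgene or treatment is named for either. Strain, embryonic stage, line, passage and medium, and what NPc stands for, are not stated in the labels. Other labels name neuronal progenitor cells marked by Sox1-GFP, and whether NPc are these is not stated. How the cells of a group were derived goes with cell type and cannot be told apart from it. The labels name biological replicates but do not say what was repeated. The p-values rest on the spread between arrays of the same group, pooled over the 15 groups of the series. Most of these arrays are of ES cells or cells differentiated from them, and some groups mix ES cell lines. A gene that varies there can therefore go uncalled here. A score was also taken from the main shared variation (32.1%) in differences between 2 probe sets of the same gene. It split some groups: Ezh2-null arrays at day 6 had 24.5 and 24.8, against -25.4, -25.9 and -20.8. MEF had 22.2 and 24.9, and neural stem cells 30.9 and 31.8. The source of this split was not tested, and it enters the pooled spread and the ranges of the other 49 arrays. The p-values measure no spread beyond these samples, and the number of arrays limits the precision. The ES cells of the series were grown on feeder fibroblasts and then depleted of them, and the part of feeder RNA in the other arrays' values of fibroblast genes was not tested.

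Fibroblasts make and remodel the collagen-rich matrix of connective tissue, pull on it through actin and myosin fibres, and secrete growth factors and chemokines that act on their neighbours. Neural stem cells in culture resemble radial glia, the dividing cells that line the embryonic brain and give rise to neurons and glia, and their identity rests on transcription factors such as Sox2. Fibroblast growth factor (FGF) signalling is widely used to maintain neural stem cells, and feedback genes such as the Sprouty family are induced by it.

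Signals are the authors' linear intensities, and each gene was represented by its probe set of highest mean in the 53 arrays. Differences are MEF minus neural stem cells on the scale log2(value + 32), given ± SE with n = 2 arrays in each group. They come from a limma fit in which the 15 groups of the series shared 1 estimate of the spread. The added 32, a pseudocount, understates the differences of dim genes. Where a larger pseudocount is mentioned below it is 4 times as large, and a mean log2 by which another probe set was chosen is that of log2(value + 32) over the 4 arrays, whose order can differ from that of mean signals. A gene was called when its Benjamini-Hochberg adjusted p was under 0.05 and its difference at least 2-fold, and "higher" or "lower" is said below only of called genes. Of 13796 genes tested, 2569 (18.6%) were called, 1468 higher in MEF (10.6%) and 1101 lower (7.98%). At the adjusted p alone, with no minimum fold, 5917 (42.9%) passed. The median over all genes tested was 0.01. At least 8-fold differences were found for 228 higher and 118 lower genes, and at least 64-fold ones for 13 and 7. Over all genes the 2 MEF arrays correlated at 0.994 and the 2 neural stem cell arrays at 0.994, against 0.875 to 0.877 between arrays of different groups. Between arrays of 1 group, 18 genes in MEF and 11 in neural stem cells differed at least 2-fold. The arrays of the groups did not overlap for 80.8% of the genes tested, so a lack of overlap says little by itself. It holds for every gene called higher or lower by name below, unless said otherwise. A gene that entered the test only through the arrays of 1 group had to differ, so the counts of list members are descriptions, read beside the shares of all genes. In these bulk samples, fewer cells of a type and less RNA per cell cannot be told apart.

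**Figure D1:**
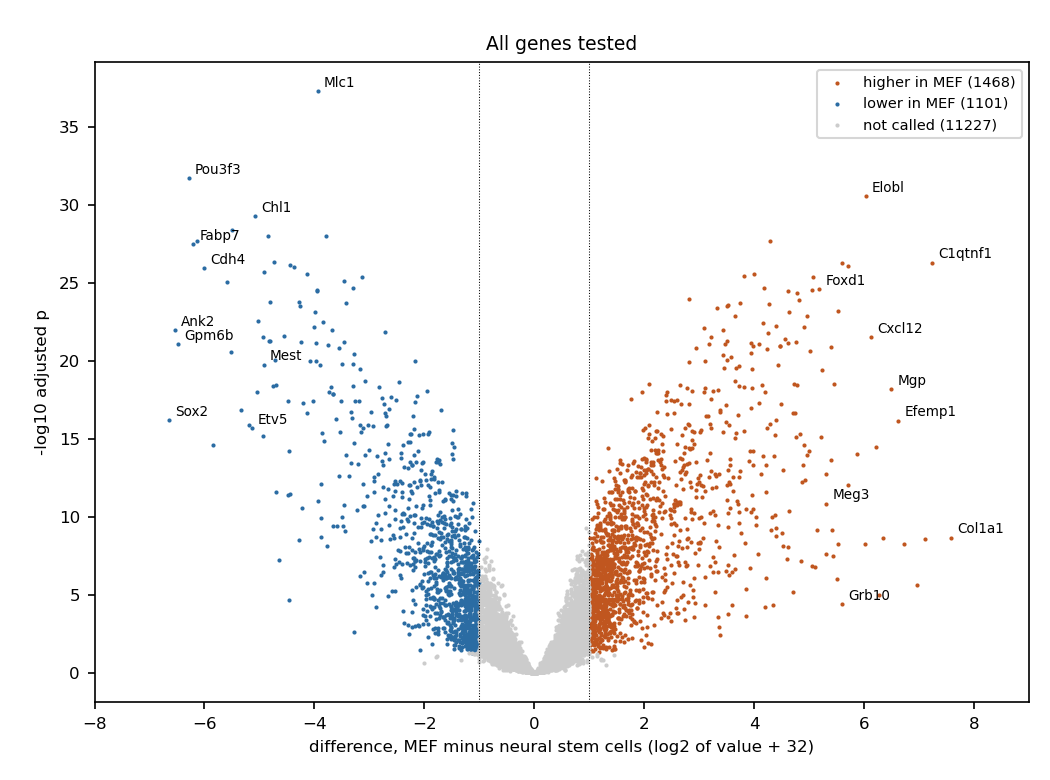
Difference between MEF and neural stem cells for the 13796 genes tested (horizontal axis, log2 of value + 32, positive where MEF is higher) against the minus log10 of the adjusted p (vertical axis), with dotted lines at 2-fold. The 1468 genes higher in MEF reach 7.58 at Col1a1, and the 1101 lower genes reach -6.65 at Sox2.

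Marker genes of both cell types were looked at first. They were chosen with earlier results of these data known, so their counts describe the groups and do not test the labels. Of 10 fibroblast markers 9 were higher in MEF and Lum was not called. Of 10 neural stem cell markers 9 were tested, 8 were lower in MEF and Nes was not called. Col3a1, a fibrillar collagen chain, had 6777 and 7764 signal units in MEF, against 284 and 292 in neural stem cells (4.51 ± 0.52, limma adjusted p = 1.1e-09). Mgp, an inhibitor of matrix calcification, had 3862 and 4362 in MEF, against 13.1 and 14.4 in neural stem cells (6.499 ± 0.38). Fabp7, the brain fatty acid-binding protein of radial glia, had 44.8 and 50.4 in MEF, against 5659 and 5981 in neural stem cells (-6.20 ± 0.19, limma adjusted p = 3.1e-28). For each of these the arrays of a group lay close together and far from the other group. Gpm6b, a membrane proteolipid of neural cells, had 33.6 and 23.1 in MEF, against 5236 and 5459 in neural stem cells (-6.48 ± 0.31).

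Pou5f1 and Nanog, which maintain pluripotency together with Sox2, were dim in both groups. Pou5f1 had 27 and 28.6 in MEF and 31 and 23.6 in neural stem cells, while wild-type ES cells at day 0 had 3802 to 4499. Nanog had 11.1 and 9.5 in MEF and 6.8 and 7.7 in neural stem cells, against at least 1478 in those ES cells. The summed signal of the 25 pluripotency genes was 5813 and 5747 in MEF and 5481 and 5097 in neural stem cells, against 49875 to 58447 in ES cells. Different genes made up these sums: Sox2 alone gave 3651 and 3482 in neural stem cells, and 2.7 and 5.1 in MEF. Of these 25 genes 5 were higher in MEF and 1, Sox2, was lower. The higher ones included the Krüppel-like factors Klf5 (3.62 ± 0.48), Klf4 (3.53 ± 0.37) and Klf2 (1.84 ± 0.44), which many somatic cells also express. Klf4 had 1062 and 1248 in MEF, against 75.3 and 65.6 in neural stem cells, and its MEF values lay within the range of ES cells at day 0 (949.7 to 1805). The other called genes were Esrrb (1.62 ± 0.26), which was not called when its probe sets were averaged (0.36), and Dnmt3l (1.01 ± 0.39), whose call was lost when any 1 of the 4 arrays was left out. As a mean over probe sets, Klf5 gave 1.70. The larger pseudocount ended the call of Dnmt3l.

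Markers of other cell types that a culture could hold are given as counts, to be read beside the 18.6% called over all genes. Of the macrophage and blood list 10 of 18 genes were tested, and Cd14 alone was higher in MEF, with 173 and 188 in MEF, against 18.9 and 12.2 in neural stem cells (2.16 ± 0.38). Ptprc and Tyrobp, which define blood cells, did not pass the filter. Of 16 epithelial genes Krt19 alone was called, with 590 and 677 in MEF, against 18.4 and 10.3 in neural stem cells (3.85 ± 0.65), while Epcam had 15.3 and 22.1 in MEF and 20.2 and 17.4 in neural stem cells. Of 11 endothelial genes Cd34 (2.54 ± 0.16), a surface protein also of mesenchymal cells, was higher, Emcn (-2.17 ± 0.13) and Plvap (-2.25 ± 0.21) were lower, and Pecam1 had 9.6 and 12.8 in MEF and 15.2 and 13.8 in neural stem cells. The muscle list held 1 lower gene of 11, and the crest and Schwann list 1 higher and 1 lower of 11. Of 15 cartilage, fat, bone and mural cell genes 5 were higher and 2 lower. Among them Pdgfrb, the PDGF receptor of mesenchymal and mural cells, had 1644 and 2192 in MEF, against 17.2 and 28.7 in neural stem cells (5.14 ± 0.59). Of 23 neuronal genes 1 was higher and 4 were lower, and Tubb3, a neuronal tubulin, had 17 and 16.8 in MEF and 14.9 and 9.9 in neural stem cells. The neuronal calls of Celf4, Ina, Neurod1, Dcx and Uchl1 were lost with the larger pseudocount.

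**Figure D2:**
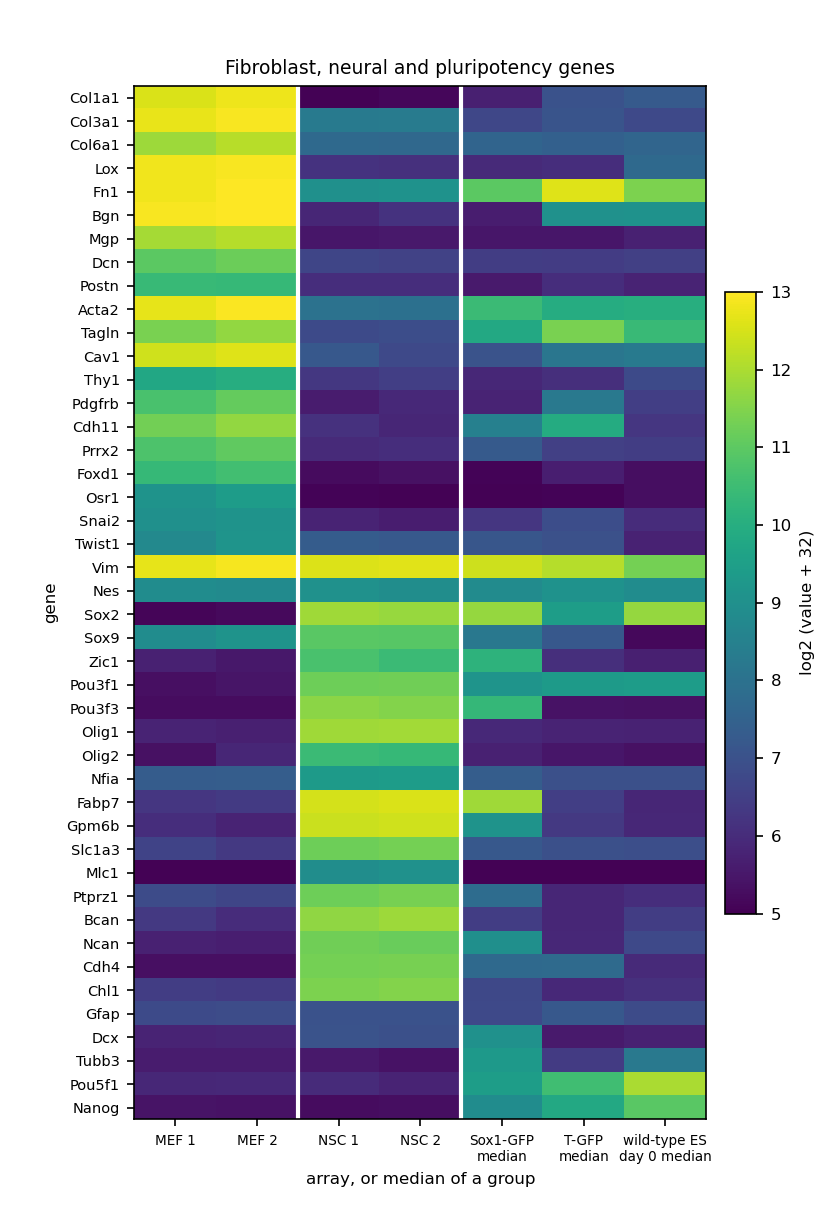
Signal (colour, log2 of value + 32) of marker genes of fibroblasts, neural stem cells and pluripotent cells (rows) in MEF 1 and 2, neural stem cell (NSC) 1 and 2 and, as medians, Sox1-GFP, T-GFP and wild-type ES day 0 arrays (columns). Collagen and other fibroblast genes are bright in MEF, Sox2, Fabp7 and Olig1 are bright in neural stem cells, and Vim is bright in both.

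Of 25 collagen chains tested, 11 were higher in MEF, none was lower and 14 were not called (median 0.90). Col1a1, the main chain of type I collagen, had 5943 and 7074 signal units in MEF, against 1 and 3 in neural stem cells (7.58 ± 0.90, limma adjusted p = 2.2e-09). Its partner chain Col1a2 had 6559.5 and 7451 in MEF, against 144 and 146 in neural stem cells (5.31 ± 0.70). A second probe set of Col1a1 gave 4.45, in the same direction. Of 8 fibrillar chains 6 were higher, also Col5a2 (5.10 ± 0.73), and the median of the fibrillar chains was 3.70. Of 8 basement membrane and network chains 4 were higher: Col8a1 (4.53 ± 0.38), the type VI chains Col6a1 (4.27 ± 0.17) and Col6a2 (4.15 ± 0.18), and Col4a5 (1.99 ± 0.32). The common basement membrane chains Col4a1 (-0.57) and Col4a2 (0.92) and the third type VI chain Col6a3 (-0.16) were not called. Of 9 fibril-associated and transmembrane chains only Col16a1 (1.67 ± 0.28) was higher, and its call was lost with the larger pseudocount.

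Enzymes that mature collagen were higher in MEF for 7 of 19 tested, and none was lower. Lox, the oxidase that cross-links collagen and elastin, had 7166 and 7699.7 signal units in MEF, against 40.1 and 37.2 in neural stem cells (6.72 ± 0.83). Its relative Loxl1 had 1873 and 2489.5 in MEF, against 44.8 and 45.5 in neural stem cells (4.83 ± 0.34), and 2.59 with the mean of its probe sets. The prolyl hydroxylase P4ha2 (3.97 ± 0.32), the procollagen proteinase enhancer Pcolce (3.94 ± 0.25) and Crtap (1.36 ± 0.16) followed. The collagen chaperone Serpinh1 (-0.10), the prolyl hydroxylase P4ha1 (0.53) and the procollagen proteinase Bmp1 (-0.20) were not called.

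Non-collagen matrix genes included fibre proteins, small proteoglycans and brain proteoglycans. Of 12 fibronectin, elastic fibre and fibulin genes 8 were higher in MEF and none lower. Fn1, fibronectin, had 7192 and 8464 signal units in MEF, against 481 and 505 in neural stem cells (3.90 ± 0.31), and no other array of the series fell below 1230.1. Efemp1, a fibulin, had 3298 and 4385 in MEF, against 8.9 and 5 in neural stem cells (6.62 ± 0.44). Of the elastic fibre genes Mfap5 (5.70 ± 0.20) and Fbln5 (5.39 ± 0.26) were higher, while elastin itself, Eln (-0.71), was not called. Of 8 small proteoglycans and Mgp 6 were higher, led by biglycan, Bgn (6.97 ± 1.14), and with osteoglycin, Ogn (4.81 ± 0.19), and decorin, Dcn (4.48 ± 0.22). Lumican, Lum, had 41.1 and 40.7 in MEF and 62.3 and 41.6 in neural stem cells and was not called. Averaged over probe sets, Fbln5 gave 3.02 and Dcn gave 2.22.

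Matricellular proteins modulate adhesion rather than build fibres, and 9 of 10 of their genes were higher in MEF (median 4.00). Thbs1, thrombospondin 1, had 5087 and 6180.1 signal units in MEF, against 43.8 and 39 in neural stem cells (6.26 ± 1.12), and 33.7 to 5763.8 in the other 49 arrays. Ccn2, also known as connective tissue growth factor, had 3944 and 4852 in MEF, against 34.3 and 38 in neural stem cells (6.02 ± 0.74). The other 49 arrays held 180.5 to 6116, so some lay above both MEF arrays. Its relatives Ccn4 (5.39 ± 0.43) and Ccn5 (4.43 ± 0.23), and Thbs2 (3.64 ± 0.16) and Sparc (2.11 ± 0.24), followed. The exception was Tnc, tenascin C, of developing brain and of healing tissue, with 1235 and 1498 in MEF and 4602 and 5001 in neural stem cells (-1.79, SE 0.89, limma adjusted p = 0.1). Its arrays did not overlap, but the difference did not pass the test, whose spread is pooled over the 15 groups. In wild-type ES cells at day 0 Tnc lay between 17.3 and 395.

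Matrix genes of the nervous system lay the other way, with 5 of 8 lower in MEF and none higher. Bcan, brevican, had 47.5 and 33 signal units in MEF, against 3253 and 3608 in neural stem cells (-5.59 ± 0.21), and no other array passed 63.3. Ncan, neurocan, had 21.3 and 19 in MEF, against 2423 and 2279 in neural stem cells (-5.51 ± 0.27). These are brain proteoglycans, as is the ectodomain of the receptor phosphatase Ptprz1 (-4.54 ± 0.21). Agrin, Agrn (-3.66 ± 0.22), was lower too, and gave -1.93 with the mean of its probe sets. Versican, Vcan (-0.01), and the link protein Hapln1 (0.23) were not called. Over the whole non-collagen list 23 of 38 were higher and 5 lower, with a median of 1.63.

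Genes of matrix remodelling were higher in MEF for 10 of 21 and lower for 3. The metalloproteinase inhibitors Timp1 (4.64 ± 0.48) and Timp2 (4.39 ± 0.49) were higher. Timp2 had 5018 and 6203 signal units in MEF, against 239.7 and 232 in neural stem cells. Timp4 was lower, with 45.3 and 34.8 in MEF, against 175 and 178 in neural stem cells (-1.54 ± 0.16); its probe set of highest mean log2 in these arrays gave -3.88, and its call was lost with the larger pseudocount. Of the proteinases, Adamts5 (2.82 ± 0.17) and Mmp14 (2.54 ± 0.25) were higher and Adamts9 (-2.92 ± 0.25) and Adam12 (-2.71 ± 0.12) lower. Adam12 had 203 and 232 in MEF, against 1602 and 1599.7 in neural stem cells, and at most 78.6 in the other 49 arrays. Serpinf1, a secreted serpin, had 2985 and 3708 in MEF, against 29.9 and 34 in neural stem cells (5.72 ± 0.51). By the mean of probe sets, Timp4 gave -2.71 and Adamts9 gave -1.44.

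Receptors for the matrix differed in both directions. Of 14 integrin chains 4 were higher in MEF and 5 lower. The higher ones were Itgb5 (2.99 ± 0.26), the fibronectin receptor chain Itga5 (1.63 ± 0.53), Itgb3 (1.41 ± 0.21) and Itgb4 (1.28 ± 0.31). The lower ones included Itga9 (-2.44 ± 0.21), Itga1 (-1.59 ± 0.21), Itga8 (-1.52 ± 0.20) and the laminin receptor chain Itga6 (-1.37 ± 0.22). Itgb1, the chain that most of them pair with, was not called (0.08). The calls of Itgb3, Itgb4, Itga1 and Itga8 were lost with the larger pseudocount, and that of Itga5 without MEF 2 or without neural stem cell array 2. Of 10 laminin and nidogen genes 4 were higher and none lower. Nid1, which joins laminin to type IV collagen, had 2475 and 3160.4 signal units in MEF, against 317 and 339 in neural stem cells (2.98 ± 0.26), and the laminin chain Lamb2 (1.68 ± 0.17) followed. Over laminins and integrins the counts were 8 higher and 5 lower, and 4 and 3 with the larger pseudocount. Where probe sets were averaged, Itga5 gave 0.84 and was not called and Itgb3 gave 0.90 and was not called.

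Caveola and surface genes of fibroblasts had 23 of 24 tested members higher in MEF, with a median of 3.86. Cav1, the coat protein of caveolae, had 5397 and 6276 signal units in MEF, against 115 and 77.5 in neural stem cells (5.53 ± 0.68). The other caveola genes were Cavin2 (5.23 ± 0.28), Cav2 (4.96 ± 0.38), Cavin3 (3.17 ± 0.27) and Cavin1 (3.11 ± 0.61). Of these 5 only Cavin2 came from the rule for named genes, and the rest were added, with their values seen, to complete the family. The calcium-binding S100 and annexin genes held large differences. S100a6 had 5864 and 6815 in MEF, against 11.1 and 17.6 in neural stem cells (7.10 ± 0.85), and Anxa3 had 3614 and 4592 in MEF, against 20.9 and 16.4 in neural stem cells (6.34 ± 0.76). In the other 49 arrays S100a6 lay between 25.4 and 5221.5 and Anxa3 between 59.9 and 5438.8, so these levels are not particular to MEF. Another annexin was Anxa8 (5.52 ± 0.23). Of surface proteins used to mark fibroblasts and stroma, Cd248 (4.24 ± 0.19), Thy1 (3.48 ± 0.23) and Pdpn (2.42 ± 0.16) were higher. The gene not called was the galectin Lgals1, which was bright in both, with 8444 and 8159 in MEF and 4659.8 and 4291 in neural stem cells (0.89). When all probe sets were averaged, Cav2 gave 2.20 and Cavin1 gave 1.59.

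**Figure D3:**
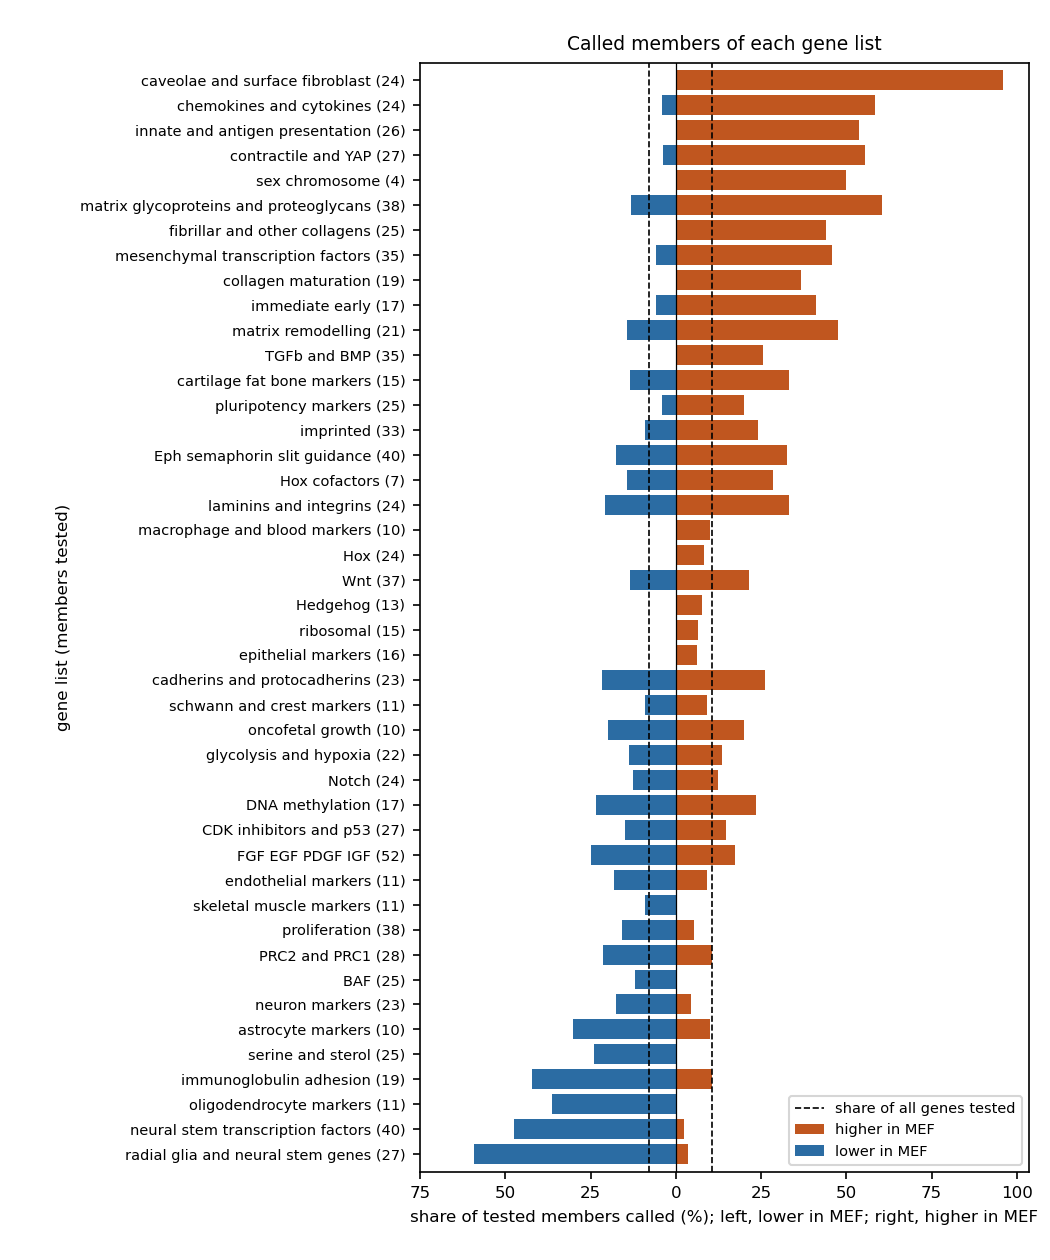
Share of tested members called in each gene list (horizontal axis, %), to the right for genes higher in MEF and to the left for genes lower in MEF. Lists (vertical axis) are ordered by the share higher minus the share lower. Dashed lines mark the shares over all genes tested, 10.6% and 7.98%. Caveola and surface genes have 23 of 24 higher and radial glia genes 16 of 27 lower.

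Of 27 contractile and YAP-related genes tested, 15 were higher in MEF, 1 was lower and 11 were not called (median 1.97). Serum response factor binds a motif called the CArG box in promoters of actin and myosin genes, and the co-activator YAP acts through TEAD factors, which bind GGAATG. The promoters of 4 genes higher in MEF are printed to show where such letters lie. Each is the 300 bases from 250 before to 50 after the start in RefSeq GRCm38.p6, 5′ to 3′ on the gene's strand. Capitals mark a CArG box in Cnn2 and Myl9, and GGAATG, or CATTCC for the other strand, in Ankrd1 and Amotl2. Cnn2 lies at chr10:79988350-79988649 on the plus strand, Myl9 at chr2:156775214-156775513 on the plus strand, Ankrd1 at chr19:36119795-36120094 on the minus strand and Amotl2 at chr9:102717554-102717853 on the plus strand.
Cnn2: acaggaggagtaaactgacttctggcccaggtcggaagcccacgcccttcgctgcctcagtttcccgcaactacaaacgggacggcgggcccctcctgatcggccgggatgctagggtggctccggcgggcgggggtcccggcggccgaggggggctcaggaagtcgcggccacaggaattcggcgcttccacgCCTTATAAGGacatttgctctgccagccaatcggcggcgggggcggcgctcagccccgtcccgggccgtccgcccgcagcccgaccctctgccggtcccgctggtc
Myl9: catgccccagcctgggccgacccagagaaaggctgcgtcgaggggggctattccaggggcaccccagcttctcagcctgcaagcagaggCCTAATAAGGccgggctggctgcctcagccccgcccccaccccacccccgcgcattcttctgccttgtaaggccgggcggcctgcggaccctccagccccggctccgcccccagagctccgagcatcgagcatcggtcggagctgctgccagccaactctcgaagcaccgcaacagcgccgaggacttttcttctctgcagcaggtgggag
Ankrd1: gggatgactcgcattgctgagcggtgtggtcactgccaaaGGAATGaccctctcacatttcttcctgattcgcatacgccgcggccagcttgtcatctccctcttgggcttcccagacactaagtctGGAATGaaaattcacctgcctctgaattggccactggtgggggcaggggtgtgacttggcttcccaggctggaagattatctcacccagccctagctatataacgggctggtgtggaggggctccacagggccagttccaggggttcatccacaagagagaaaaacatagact
Amotl2: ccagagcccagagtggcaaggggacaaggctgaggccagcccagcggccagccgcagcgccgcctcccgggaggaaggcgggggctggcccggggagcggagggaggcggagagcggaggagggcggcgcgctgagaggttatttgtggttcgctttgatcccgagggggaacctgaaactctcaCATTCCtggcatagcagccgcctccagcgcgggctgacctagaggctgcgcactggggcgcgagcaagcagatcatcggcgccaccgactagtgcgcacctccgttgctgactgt

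Both strands were searched in the 23 of 28 listed genes that matched the RefSeq promoter table; Tagln, Actg2, Myh11, Tead1 and Tead4 did not. The CArG box was searched only as CCWWWWWWGG, with W for A or T, so forms that differ by a letter were not counted. The Acta2 window holds such forms, ccctatatgg and ccttgtttgg. An exact CArG box was found for 3 of 23 (13.04%), Cnn2, Myl9 and Vcl, against 1.81% of the 27025 genes in the table. GGAATG was found for 13 of 23 (56.5%), against 16.6% of all genes, and for 7 of the 8 YAP and TEAD genes with a promoter. A gene counted if any of its windows matched, and genes with several starts, such as Tead3 with 3, had more windows. The YAP and TEAD list was made of known partners and targets, so its share is a description and no test. TATAAA, which can lie within a CArG box, was found for 3 of 23 (13.04%), against 15.7% of all genes. Genes with GGAATG were both called and not called: Acta2, Amotl2, Ankrd1, Axl, Cald1, Tagln2 and Tpm1 were higher in MEF, and Lats2, Lmod1, Tead3, Vcl, Wwtr1 and Yap1 were not called. A match describes letters in this window and is no sign that a factor binds there.

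Of 17 actin, myosin and associated genes 12 were higher in MEF and none lower, with a median of 3.25. Acta2, smooth muscle actin, had 6606 and 7970.4 signal units in MEF, against 226 and 216 in neural stem cells (4.85 ± 0.67). Tagln, an actin-binding protein, had 2648 and 3314 in MEF, against 79.7 and 85.7 in neural stem cells (4.71 ± 0.82). Cnn2, a calponin, had 3423 and 4698 in MEF, against 233 and 228 in neural stem cells (3.95 ± 0.41). Acta2 and Tagln, standard markers of contractile fibroblasts, and Myl9 below were chosen with their values seen. Acta2, Tagln and Cnn2 were well above neural stem cells, yet in the other 49 arrays Acta2 reached 10636, Tagln 7711 and Cnn2 5842. The focal adhesion gene Zyx (4.04 ± 0.43), the light chain Myl9 (3.52 ± 0.76), the tropomyosin Tpm2 (3.36 ± 0.42) and the transgelin Tagln2 (3.62 ± 0.31) followed. Vim, vimentin, a filament of mesenchyme and of radial glia, had 6612 and 7534 in MEF and 6138 and 6399 in neural stem cells (0.17), and the muscle genes Des (0.16) and Cnn1 (0.25) were not called. Over all probe sets, averaged, Acta2 gave 1.78 and Zyx gave 2.33.

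Among YAP and TEAD genes 3 were higher in MEF and 1 was lower. Amotl2, which binds YAP and is induced by it, had 1831 and 2255 signal units in MEF, against 81.2 and 55.7 in neural stem cells (4.37 ± 0.46). Ankrd1, another known target, had 310.3 and 294 in MEF, against 24.1 and 30.9 in neural stem cells (2.49 ± 0.26), and the receptor kinase Axl (2.79 ± 0.53) was higher as well. YAP itself was not called: Yap1 had 1832 and 2232 in MEF and 2012 and 1815 in neural stem cells (0.08), and the arrays overlapped. The co-activator Wwtr1 (0.42), the kinase Lats2 (0.04), and Tead1 (-0.14), Tead3 (0.53) and Tead4 (0.35) were not called. Tead2 was lower, with 417 and 418 in MEF, against 1216 and 1218 in neural stem cells (-1.47 ± 0.22). As a mean over probe sets, Axl gave 1.40. Ankrd1 gave 3.78 with the probe set of highest mean log2 in these arrays.

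Transcription factors of mesenchyme were higher in MEF for 16 of 35 tested and lower for 2. Foxd1, of stromal mesenchyme, had 1275 and 1493 signal units in MEF, against 5.3 and 8.8 in neural stem cells (5.18 ± 0.20), and no other array passed 63.8. Prrx2, a homeobox factor of limb and face mesenchyme, had 1724 and 2079.8 in MEF, against 29.6 and 34.8 in neural stem cells (4.91 ± 0.22). Osr1, of lateral and intermediate mesoderm, had 515 and 661 in MEF, against 2 and 1.2 in neural stem cells (4.20 ± 0.24). These are factors of embryonic body mesenchyme. Those known to drive epithelial-mesenchymal transition, the Snail and Twist genes being added with their values seen, were not uniform: Snai2 (3.35 ± 0.50), Snai1 (2.85 ± 0.29), Twist1 (1.69 ± 0.23) and Twist2 (1.33 ± 0.20) were higher, Zeb2 (0.06) was not called, and Zeb1 (-2.21 ± 0.41) was lower. Zeb1 had 745 and 853 in MEF, against 3749.9 and 3838 in neural stem cells. Tbx18, a T-box factor of mesenchyme and mural cells, was the other lower gene, with 277 and 324 in MEF, against 2207 and 2226 in neural stem cells (-2.76 ± 0.17), and at most 46.2 in the other 49 arrays. Runx1 (2.25 ± 0.20), of blood and skeletal lineages, was higher, with 0.76 and no call when probe sets were averaged. With the larger pseudocount no call was left for Twist2.

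Transcription factors of neural stem cells were lower in MEF for 19 of 40 tested and higher for 1, with a median of -0.73. Sox2 had 2.7 and 5.1 signal units in MEF, against 3651 and 3482 in neural stem cells (-6.65 ± 0.44, limma adjusted p = 6.5e-17). The MEF arrays lay below all other 49 arrays, whose lowest value was 249. Sox3, of the same SoxB1 family, had 23.6 and 20.2 in MEF, against 398 and 506 in neural stem cells (-3.16 ± 0.22), and 1655 to 1797 in Sox1-GFP cells. Sox1, the third SoxB1 gene, did not follow, with 30.8 and 35.8 in MEF and 17.4 and 5.1 in neural stem cells (0.61, under 2-fold). Sox9, of glial competence and of cartilage, was lower, with 447 and 521 in MEF, against 1965 and 1904 in neural stem cells (-1.93 ± 0.47). The 1 higher gene was Emx1 (1.22 ± 0.18), a call lost with the larger pseudocount. Averaged over probe sets, Sox3 gave -1.79.

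Of the POU and Olig factors, 4 were lower in MEF. Pou3f3 had 6.3 and 6.6 signal units in MEF, against 3062 and 2879.8 in neural stem cells (-6.29 ± 0.15), and Pou3f1 gave -5.84 ± 0.43. Their relatives Pou3f2 (0.06) and Pou3f4 (-0.43) were not called. Olig1, a helix-loop-helix factor of ventral progenitors and the oligodendrocyte lineage, had 24.2 and 19.6 in MEF, against 3708 and 3798 in neural stem cells (-6.14 ± 0.19). Olig2, its relative, had 8.8 and 26.4 in MEF, against 1374 and 1281 in neural stem cells (-4.80 ± 0.19). For both the neural stem cell arrays lay above all other 49 arrays, which reached 34.9 for Olig1 and 33.5 for Olig2. The Sox1-GFP cells, a neural population, had 21.1 to 31.2 for Olig1. Sox10, of committed oligodendrocytes and neural crest, was not called (0.46). By the mean of probe sets, Pou3f3 gave -3.95.

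Factors that pattern the neural tube included Zic1 (-4.93 ± 0.35), Lhx2 (-2.93 ± 0.20) and Pax6 (-2.41 ± 0.22), all lower in MEF. Pax6, added with its values seen, had 22.1 and 19.4 in MEF, against 278 and 221 in neural stem cells, while the Sox1-GFP arrays had 850.3 to 902. Otx2, of fore- and midbrain, was dim in both groups, with 3.1 and 5.9 in MEF and 3.3 and 3.4 in neural stem cells, and the other 49 arrays held at least 114. The glial factors Nfib (0.63) and Nfix (0.35) were not called. Where probe sets were averaged, Pax6 gave -0.995 and was not called.

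Genes of radial glia were lower in MEF for 16 of 27 tested and higher for 1, with a median of -1.59. Slc1a3, a glial glutamate transporter, had 66.1 and 48.4 signal units in MEF, against 2403 and 2528 in neural stem cells (-4.81 ± 0.23). Mlc1, an astroglial membrane protein, had 1 and 1 in MEF, against 458 and 493 in neural stem cells (-3.94 ± 0.07, limma adjusted p = 5.5e-38), and at most 4.5 elsewhere. The membrane protein Gpm6a (-3.97 ± 0.19), a relative of Gpm6b, was lower as well. Nestin, Nes, the filament most used to mark neural stem cells, had 439.7 and 423 in MEF and 501 and 454 in neural stem cells (-0.14), and 307 to 692 in the other 49 arrays, and was not called. The 1 higher gene was the surface protein Cd24a (1.57 ± 0.25). When all probe sets were averaged, Cd24a gave 1.01.

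Of 10 astrocyte genes 3 were lower in MEF and 1, Cst3 (1.36 ± 0.32), was higher. Aldoc, the brain aldolase, had 96.2 and 103 signal units in MEF, against 2509 and 2364 in neural stem cells (-4.23 ± 0.43), and Sparcl1 (-4.45 ± 0.34) and glutamine synthetase, Glul (-2.85 ± 0.30), were lower too. Gfap, the filament of mature astrocytes, had 78.5 and 83.2 in MEF and 98.2 and 96.5 in neural stem cells and was not called (-0.20). Of 11 oligodendrocyte-lineage genes 4 were lower, which included Olig1 and Olig2, and the myelin genes Mbp (-0.29) and Mobp (-0.65) were not called. With the larger pseudocount 2 of the 11 were lower. Over all probe sets, averaged, Aldoc gave -2.25.

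Adhesion genes differed in both directions within families. Of 17 cadherins 4 were higher in MEF and 4 lower. Cdh11, of mesenchyme, had 2461 and 3281 signal units in MEF, against 37.9 and 25.7 in neural stem cells (5.50 ± 0.86). Cdh4 had 8.5 and 8.4 in MEF, against 2558 and 2617 in neural stem cells (-6.02 ± 0.21), and Cdh2, N-cadherin, had 453 and 480.4 in MEF, against 2559.8 and 2728 in neural stem cells (-2.42 ± 0.38). The protocadherin Pcdh9 (-4.73 ± 0.16) was lower, Pcdh19 (1.59 ± 0.21) higher, and Pcdh7 (2.11 ± 0.25) higher but not with the mean of its probe sets (0.62). In the immunoglobulin family 8 of 19 were lower and 2 higher. Chl1, a relative of L1, had 55.1 and 50.3 in MEF, against 2740.5 and 2909.8 in neural stem cells (-5.08 ± 0.14), and Cadm1 (-3.12 ± 0.21), Cntn3 (-2.69 ± 0.17) and Lsamp (-1.39 ± 0.16) followed. Vcam1 (1.77 ± 0.18), of stromal and endothelial cells, was higher, as was Thy1. Ank2, which anchors membrane proteins to the spectrin skeleton, had 17.4 and 16.7 in MEF, against 4589 and 4479 in neural stem cells (-6.54 ± 0.29), and -2.64 with the mean of its 6 probe sets, 3 of which were dim in these arrays. Cadherins and protocadherins counted 6 higher and 5 lower, with 3 and 3 under the larger pseudocount and 2 higher by averaged probe sets. The immunoglobulin family had 5 lower genes under the larger pseudocount. As a mean over probe sets, Cdh4 gave -3.49, Chl1 gave -2.13 and Cadm1 gave -1.90. No call was left for Lsamp with the larger pseudocount. Vcam1 gave 4.13 with the probe set of highest mean log2 in these arrays.

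Guidance genes were also split. Of 15 Eph receptors and ephrins 6 were higher in MEF and none lower. The ligand Efnb2 had 1216 and 1531 signal units in MEF, against 111 and 132 in neural stem cells (3.19 ± 0.46), and the receptors Epha2 (2.14 ± 0.23) and Epha3 (1.89 ± 0.15) were higher. Epha4 gave 3.57 ± 0.28, but 0.72 and no call with the probe set of highest mean log2 in these arrays. Of 25 semaphorin, plexin, slit and netrin genes 7 were higher and 7 lower. The secreted Sema3c (3.96 ± 0.37), Sema3d (2.14 ± 0.26), Slit2 (2.60 ± 0.19) and Slit3 (1.71 ± 0.32) were higher. The transmembrane Sema6a (-4.20 ± 0.26), Sema6d (-2.64 ± 0.17) and Sema5b (-2.07 ± 0.18), the netrin Ntn4 (-3.49 ± 0.18) and the slit receptors Robo1 (-1.79 ± 0.28) and Robo2 (-1.001 ± 0.24) were lower. The receptors were added, with their values seen, beside their ligands: Slit2 had 878 and 1074 in MEF, against 129 and 137 in neural stem cells, and its receptor Robo1 had 171 and 197 in MEF, against 679 and 754 in neural stem cells. Over both groups of guidance genes 13 were higher, and 8 with the larger pseudocount. Robo2, just past 2-fold, was also not called with quantile normalisation or with arrays centred on their median. Averaged over probe sets, Efnb2 gave 1.96, Epha4 gave 1.496, Sema6a gave -2.58 and Robo1 gave -0.69 and was not called. The larger pseudocount ended the call of Slit3 and Robo2. Efnb2 gave 2.05 with the probe set of highest mean log2 in these arrays. Sema6d gave -6.15 with the probe set of highest mean log2 in these arrays. Robo2 was not called without MEF 1 or without neural stem cell array 1.

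Ligands of growth factor receptors were higher in MEF for 5 of 24 and lower for 3. The list also holds the chemokine Cxcl12, which is 1 of the 5 and is counted again among the chemokines below. Fgf7, a fibroblast-made factor for epithelia, had 1324 and 1633 signal units in MEF, against 29 and 34.2 in neural stem cells (4.56 ± 0.21). The EGF-family ligands Ereg (2.62 ± 0.33) and Nrg1 (1.82 ± 0.17) were higher, and Kitl (-1.78 ± 0.38), Fgf1 (-1.80 ± 0.17) and Fgf13 (-1.19 ± 0.29) lower. Of 15 receptors 2 were higher and 1 lower. Met, the receptor of hepatocyte growth factor, had 703 and 799 in MEF, against 22.8 and 13.4 in neural stem cells (3.97 ± 0.21), and Pdgfrb was the other higher gene. Kit, the receptor of Kitl, had 15.9 and 11.9 in MEF, against 264 and 253 in neural stem cells (-2.66 ± 0.48), but -0.51 and no call with the probe set of highest mean log2 in these arrays. The receptors Fgfr1 and Egfr, of FGF and EGF, were not called: Fgfr1 had 721 and 873 in MEF and 612 and 724 in neural stem cells (0.24), and Egfr had 359 and 374 in MEF and 424 and 406 in neural stem cells (-0.17). By the mean of probe sets, Fgf13 gave -0.61 and was not called and Kit gave -1.59. With the larger pseudocount no call was left for Fgf13. Fgf1 gave -3.05 with the probe set of highest mean log2 in these arrays. Fgf13 gave -0.02 with the probe set of highest mean log2 in these arrays and was not called.

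Feedback inhibitors of that pathway and binding proteins of insulin-like growth factor (IGF) were lower in MEF for 9 of 13 and higher for 2, with a median of -3.05. Etv5, an ETS factor induced by FGF signalling, had 120 and 142 signal units in MEF, against 5555 and 5852 in neural stem cells (-5.14 ± 0.35). Dusp6, a phosphatase of the kinase ERK, had 428 and 469.6 in MEF, against 3814 and 4069 in neural stem cells (-3.05 ± 0.29). The Sprouty inhibitors Spry4, Spry1 and Spry2 gave -3.85 ± 0.27, -3.47 ± 0.16 and -3.27 ± 0.20, and their relative Spred1 -1.16 ± 0.16. For all 6 of these genes both neural stem cell arrays lay above the other 49 arrays, and for Etv5, Spry1 and Spry2 both MEF arrays lay below them. How many of all genes tested lie so was not counted, so this describes only these genes. Spry1 had 126 and 150.1 in MEF, against 1932 and 1764 in neural stem cells, and 161 to 517 in the other 49. Etv4 (-1.01 ± 0.19) was lower by less, and was not called with arrays centred on their median. Dusp6, Spry4, Spred1, Etv4 and Igfbp3 were added, with their values seen, so that all 9 lower genes are named. Where probe sets were averaged, Spry2 gave -1.99 and Etv4 gave -0.72 and was not called. No call was left for Etv4 with the larger pseudocount. Etv4 was not called without MEF 1 or without neural stem cell array 1.

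IGF-binding proteins differed in both directions. Igfbp2 had 134 and 165 signal units in MEF, against 5501 and 5451 in neural stem cells (-4.93 ± 0.23), and the MEF arrays lay below the other 49, whose lowest value was 979. Igfbp3 had 92.7 and 99.6 in MEF, against 3162 and 3177 in neural stem cells (-4.64 ± 0.63). Igfbp7 was higher in MEF, with 2291 and 2819.6 in MEF, against 180.1 and 164 in neural stem cells (3.66 ± 0.53), as was Igfbp6 (2.87 ± 0.17). Igfbp4 (0.38) and Igfbp5 (0.60) were not called. When all probe sets were averaged, Igfbp7 gave 1.56.

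**Figure D4:**
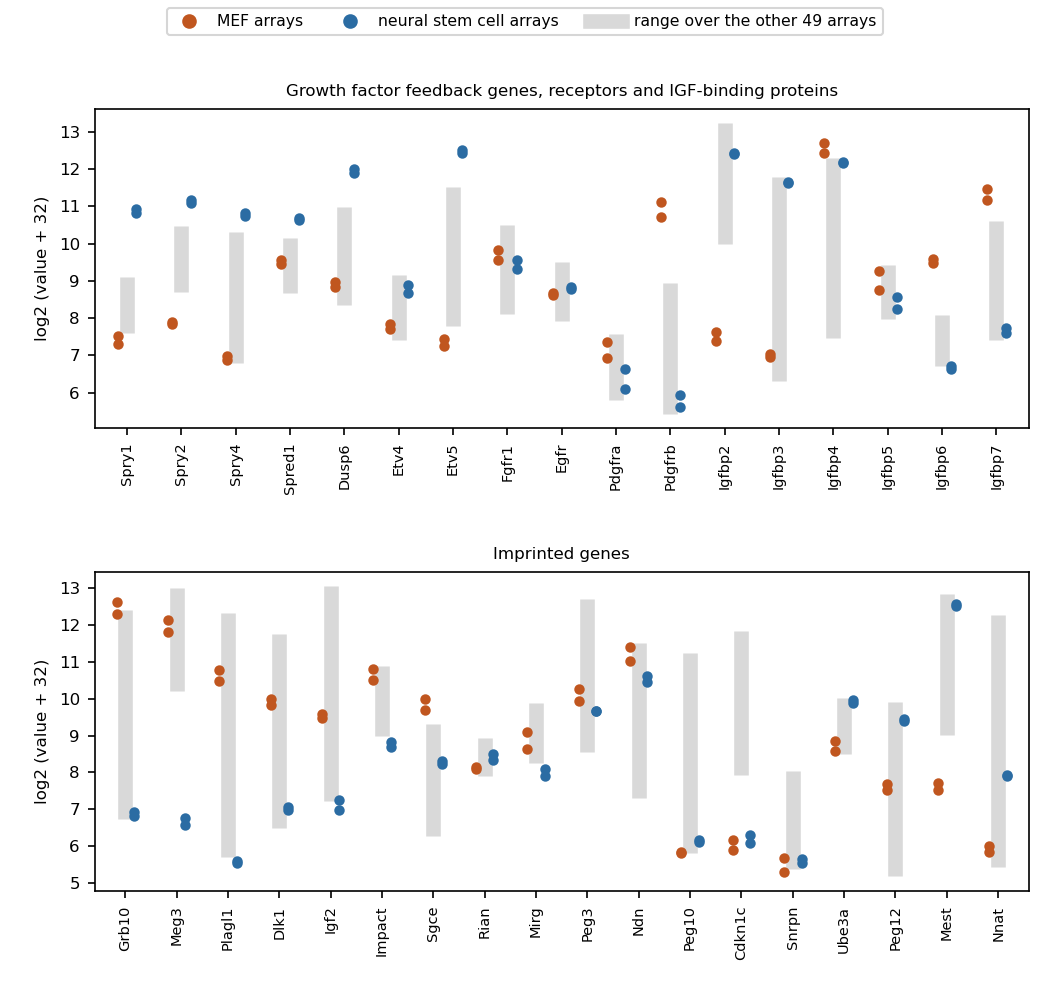
Signal (vertical axis, log2 of value + 32) of feedback genes, receptors and IGF-binding proteins (top) and of imprinted genes (bottom) in each MEF array (left dots) and neural stem cell array (right dots), with the range of the other 49 arrays in grey. Etv5 and the Sprouty genes are high in neural stem cells and low in MEF, Fgfr1 and Egfr overlap or lie close, and Meg3 in neural stem cells lies below the grey range.

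Bone morphogenetic protein (BMP) and TGF-beta genes were higher in MEF for 9 of 35 and lower for none. Bmp4, a ligand, had 1538 and 2114 signal units in MEF, against 84 and 36.7 in neural stem cells (4.36 ± 0.34), and the ligands Inhba (3.61 ± 0.71) and Tgfb1 (1.94 ± 0.31) were higher. The secreted antagonists Fst (4.62 ± 0.58), Fstl1 (2.48 ± 0.35), Fstl3 (1.65 ± 0.21) and Chrd (1.28 ± 0.24) were higher too, and no receptor was called. Of the target genes, Smad7, an inhibitory Smad, had 530.5 and 636 in MEF, against 43.2 and 44.6 in neural stem cells (3.01 ± 0.21), Id1 (2.17 ± 0.53) was higher, and Id2 (0.17), Id3 (0.20) and Id4 (0.73) were not called. Over all probe sets, averaged, Inhba gave 1.89 and Tgfb1 gave 1.05. The larger pseudocount ended the call of Fstl3 and Chrd.

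Wnt genes were higher in MEF for 8 of 37 and lower for 5. The Frizzled receptors Fzd2 (2.21 ± 0.25), Fzd6 (2.02 ± 0.22) and Fzd7 (1.90 ± 0.21) and the antagonist Sfrp1 (3.73 ± 0.38) were higher. The receptor Fzd9 (-2.39 ± 0.18) and the Frizzled-related Sfrp2 (-2.16 ± 0.31) were lower. Axin2, a feedback gene of canonical Wnt signalling, had 192 and 198 signal units in MEF, against 594 and 574 in neural stem cells (-1.44 ± 0.19). Nkd1 (-0.43) and Lef1 (-0.36), also targets, were not called. With the larger pseudocount 3 of the Wnt genes were lower. As a mean over probe sets, Fzd6 gave 1.13, Fzd7 gave 1.19 and Sfrp1 gave 2.22.

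Notch receptors differed in direction. Notch1 had 193 and 222 signal units in MEF, against 1625 and 1472 in neural stem cells (-2.72 ± 0.28), Notch3 (-1.38 ± 0.19) was lower, and Notch2 was higher, with 1143 and 1394 in MEF, against 451 and 438 in neural stem cells (1.44 ± 0.17). Of the targets Hey2 (1.64 ± 0.35) was higher and Hey1 (-1.26 ± 0.18) lower, both calls being lost with the larger pseudocount, and Hes1 (-0.36) and Hes5 (-0.55) were not called. The ligands Dll1 (-0.24) and Jag1 (-0.21) were not called. Of the 24 Notch genes 3 were higher, one of them Dlk1, and 3 lower; 5 were higher without MEF 1, and 5 lower with averaged probe sets. Of 13 Hedgehog genes only the co-receptor Gas1 (1.28 ± 0.36) was called.

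Chemokine, cytokine and complement genes were higher in MEF for 14 of 24 and lower for 1 (median 1.62). Cxcl12, the stromal chemokine, had 7018 and 7978 signal units in MEF, against 76.9 and 74.6 in neural stem cells (6.12 ± 0.28), with 4.03 by the mean of its probe sets and at most 324 in the other 49 arrays. Il6, an inflammatory cytokine, had 593 and 689 in MEF, against 7.3 and 7.2 in neural stem cells (4.10 ± 0.25). The complement proteases C1ra (4.18 ± 0.16) and C1s1 (3.98 ± 0.19) followed. The alarmin Il33 was the 1 lower gene, with 34.6 and 34.8 in MEF, against 660 and 607 in neural stem cells (-3.32 ± 0.22).

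Antigen presentation and interferon genes were higher in MEF for 14 of 26 and lower for none. Ifitm3, an antiviral membrane protein, had 5233 and 6695 signal units in MEF, against 318 and 295 in neural stem cells (4.14 ± 0.23). B2m, the class I light chain, named with its values seen, had 3725 and 4449.9 in MEF, against 844 and 712 in neural stem cells (2.35 ± 0.50). The peptide-loading gene Tapbp (3.03 ± 0.27) was higher. Ifitm1 (2.59 ± 0.26) and Ifit1 (1.93 ± 0.28) were higher, Ifit1 not with the larger pseudocount, while Irf7 (-0.31), Ifit3 (0.32) and Rsad2 (-0.81), which interferon induces, were not called. With the larger pseudocount the count of higher genes was 8. Averaged over probe sets, Tapbp gave 2.01.

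Imprinted genes, of which a single parental copy is active, were higher in MEF for 8 of 33 and lower for 3. Grb10, an adaptor that restrains growth, had 5026 and 6309 signal units in MEF, against 80.2 and 90.3 in neural stem cells (5.595 ± 1.09, limma adjusted p = 4.0e-05). Meg3, a maternally expressed non-coding RNA, had 3543 and 4498 in MEF, against 76.2 and 63.1 in neural stem cells (5.31 ± 0.52), and 1163 to 8265 in the other 49 arrays. Both neural stem cell arrays thus lay below all others. Of its 11 probe sets 5 gave differences of 4.58 to 5.61, and the others, mostly dim, gave -0.47 to 1.66. Dlk1, the paternally expressed gene of the same cluster, had 882 and 984 in MEF, against 100.4 and 93.8 in neural stem cells (2.90 ± 0.65), while Rian (-0.31) and Mirg (0.87), also of that cluster, were not called. Plagl1, a zinc finger factor, had 1389.5 and 1720.2 in MEF, against 16.2 and 14.7 in neural stem cells (5.06 ± 0.72), and Igf2 (2.43 ± 0.54), the fetal growth factor, was higher. Grb10 and Igf2 were named with their values seen. Mest was lower, with 153 and 178 in MEF, against 5845 and 6072 in neural stem cells (-4.92 ± 0.26), and its MEF arrays lay below the other 49, whose lowest value was 489.5. Peg12 (-1.84 ± 0.28) and Ube3a (-1.21 ± 0.27) were lower as well. Nnat had 31.7 and 24.8 in MEF and 210 and 207 in neural stem cells and was not called (limma adjusted p = 0.22). By the mean of probe sets, Grb10 gave 3.19, Meg3 gave 2.72, Dlk1 gave 1.47, Plagl1 gave 1.94 and Igf2 gave 1.28.

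Hox genes record position along the body axis. Of 33 measured 24 were tested, 2 were higher in MEF and none was lower (median 0.13). The summed Hox signal was 2522 and 2819 in MEF and 2654 and 2697 in neural stem cells, against 1017 to 1217 in ES cells at day 0. Anterior genes were measured in both groups: Hoxa3 had 539 and 566 in MEF and 865 and 908 in neural stem cells (-0.65), and Hoxb2 had 372 and 424 in MEF and 309 and 280.4 in neural stem cells (0.39). Hoxa2 had 165 and 183 in MEF and 285 and 265 in neural stem cells (-0.57), and Hoxb3 had 217 and 271 in MEF and 188 and 159 in neural stem cells (0.42). These 4 lay above ES cells at day 0 in both groups, where none of them passed 31.5. Hoxa7 had 67.6 and 82 in MEF, against 12.1 and 4.1 in neural stem cells (1.42 ± 0.17), and Hoxb6 had 87.3 and 96.4 in MEF, against 24.5 and 16.7 in neural stem cells (1.24 ± 0.27). Both are dim, and both calls were lost with the larger pseudocount. Hoxc4 (0.75) and Hoxb4 (0.65) were under 2-fold, Hoxa5 (0.01) gave 0.66 by a second probe set, and the posterior Hoxa11 (-0.14), Hoxd10 (-0.10) and Hoxd13 (0.21) were not called. Of the cofactors, Meis2 (1.87 ± 0.38) was higher, and Meis1 (-1.32 ± 0.47) was lower but not when any 1 of the 4 arrays was left out. Where probe sets were averaged, Meis1 gave -0.34 and was not called.

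**Figure D5:**
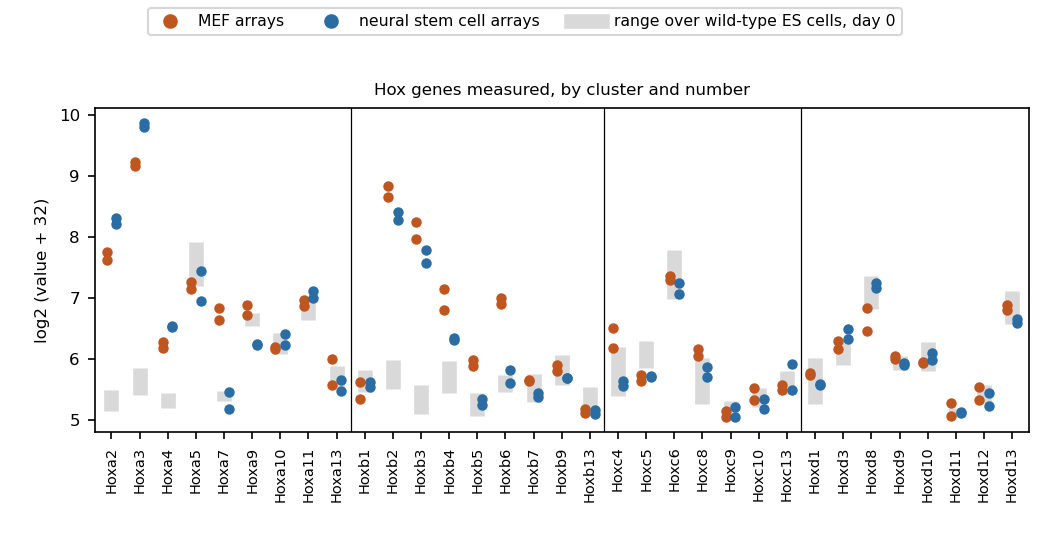
Signal (vertical axis, log2 of value + 32) of Hox genes by cluster (horizontal axis) in each MEF array and neural stem cell array, with the range of wild-type ES cells at day 0 in grey. Hoxa2, Hoxa3, Hoxb2 and Hoxb3 stand above the grey range in both groups, and Hoxa7 and Hoxb6 in MEF.

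Polycomb genes, the subject of the wider study, differed moderately. Ezh2, the methyltransferase of Polycomb repressive complex 2 (PRC2), had 494 and 583 signal units in MEF, against 1061 and 1096 in neural stem cells. Its difference of -0.97 (SE 0.23, limma adjusted p = 5.8e-04) fell short of 2-fold, and it was called with quantile normalisation (-1.04) and without MEF 2 (-1.08). Of 11 PRC2 genes Suz12 (-1.35 ± 0.29), Jarid2 (-1.26 ± 0.24) and Eed (-1.20 ± 0.21) were lower in MEF and none was higher. Eed, which binds the mark that PRC2 makes, had 319 and 351 in MEF, against 810 and 813 in neural stem cells. By averaged probe sets Suz12 (-0.87) and Eed (-0.59) were not called, nor was Jarid2 with the larger pseudocount. Of 17 PRC1 genes Phc2 (-2.12 ± 0.24), Kdm2b (-1.75 ± 0.49) and Cbx2 (-1.10 ± 0.43) were lower and Pcgf2 (1.45 ± 0.28), Pcgf5 (1.44 ± 0.28) and Cbx6 (1.11 ± 0.16) higher. The call of Cbx2 was lost when any 1 array was left out, that of Cbx6 without MEF 2, and those of Pcgf2 and Pcgf5 with the mean of probe sets, by which 1 gene was higher. When all probe sets were averaged, Cbx2 gave -0.80 and was not called. With the larger pseudocount no call was left for Cbx2 and Pcgf2.

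Of 25 genes of the BAF remodelling complex 3 were lower in MEF and none higher, and the median was -0.77. The core subunit Smarcc1 (-1.502 ± 0.31), Arid2 (-1.62 ± 0.27) and Dpf3 (-1.75 ± 0.15) were lower, Smarcc1 and Arid2 not with the mean of probe sets and Dpf3 not with the larger pseudocount. The count of lower genes was 6 without MEF 2 and 5 with quantile normalisation. The ATPase Smarca4 had 1185 and 1375 in MEF and 2330.3 and 2445 in neural stem cells (-0.89, under 2-fold). Of 17 DNA methylation genes 4 were higher and 4 lower, and 2 were higher without MEF 2 or with the larger pseudocount. The maintenance factors Uhrf1 (-1.72 ± 0.33) and Dnmt1 (-1.32 ± 0.32) and the oxidase Tet1 (-2.22 ± 0.38) were lower, Dnmt1 not with the mean of probe sets (-0.88), and the de novo enzymes Dnmt3a (-0.19) and Dnmt3b (-0.29) were not called. Uhrf1 had 510.3 and 559.6 in MEF, against 1739 and 1923 in neural stem cells. Over all probe sets, averaged, Dpf3 gave -1.08 and Tet1 gave -1.18.

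Of 38 proliferation genes 6 were lower in MEF and 2 higher, with a median of -0.54. Mki67, a nuclear protein of dividing cells, had 815 and 918 signal units in MEF, against 3580.4 and 3708 in neural stem cells (-2.03 ± 0.34). The D-type cyclins, which start the cycle, differed in direction: Ccnd2 had 1328 and 1642 in MEF, against 6683 and 6646 in neural stem cells (-2.15 ± 0.29). Ccnd1 had 1615 and 2084 in MEF, against 4821 and 4521 in neural stem cells (-1.33 ± 0.31), and Ccnd3 had 1347 and 1632 in MEF, against 523 and 506 in neural stem cells (1.47 ± 0.20). Averaging probe sets ended the calls of Ccnd1 (-0.92) and Ccnd3 (0.57) and gave 3 lower and 1 higher genes of the list. The partner kinase Cdk6 (1.74 ± 0.30) was higher and Cdk4 (0.63) was not called. Cdkn2a, the Ink4a and Arf locus, had 118 and 136 in MEF and 169.8 and 167 in neural stem cells (-0.34). Both groups exceeded the Sox1-GFP arrays, which had 13.8 to 21.7. Its neighbour Cdkn2b (1.22 ± 0.37) was higher, not without MEF 2, and the inhibitor Cdkn1b (-1.08 ± 0.38) was lower, not when any 1 array was left out. Of p53 targets, the death receptor Fas (2.73 ± 0.21) was higher and Cdkn1a (0.05) and Mdm2 (0.96) were not called. As a mean over probe sets, Cdkn1b gave -0.86 and was not called. No call was left for Cdkn2b with the larger pseudocount.

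Of 25 genes of serine, sterol and fatty acid synthesis 6 were lower in MEF and none higher, with a median of -0.61. Dhcr7, the last enzyme of cholesterol synthesis, had 258 and 311 signal units in MEF, against 2088 and 2080.1 in neural stem cells (-2.75 ± 0.39). The lipogenic factor Srebf1 (-1.99 ± 0.17), the elongase Elovl6 (-1.78 ± 0.29) and the desaturase Scd1 (-1.24 ± 0.28) were lower. Phgdh, the first enzyme of serine synthesis, gave -1.59 ± 0.23, but -0.77 and no call with the probe set of highest mean log2 in these arrays. Shmt1 gave -1.35 ± 0.26, but 0.11 with that choice. Of 15 ribosomal protein genes 1 was higher and the median was -0.05. Averaged over probe sets, Phgdh gave -1.05.

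Other large differences lay outside these lists. C1qtnf1, a secreted protein with a C1q domain, had 28996 and 33986 signal units in MEF, against 182 and 169.7 in neural stem cells (7.24 ± 0.25), and its value in MEF 2 was the highest of any probe set in the series. Its averaged probe sets gave 4.06. Ahnak (6.21 ± 0.46), a large scaffold protein, gave 1.76 with that mean. Elobl (6.03 ± 0.16) and Moxd1 (5.87 ± 0.45) were the other large rises. Of the falls, Astn1, which acts in migration of neurons along glia, had 21.4 and 13 in MEF, against 2176 and 2193 in neural stem cells (-5.50 ± 0.16), and Car3 (-5.19 ± 0.35) is a carbonic anhydrase. Gas6, a secreted ligand, had 44.4 and 48 in MEF, against 3241 and 3006 in neural stem cells (-5.33 ± 0.34), while Axl, a receptor of Gas6, had 1672 and 1986 in MEF, against 246 and 227 in neural stem cells (2.79 ± 0.53). Hmga2, a chromatin protein of embryonic cells, had 2737 and 3512 in MEF, against 1253 and 1094 in neural stem cells (1.38 ± 0.38), and Lin28a (0.21), Igf2bp1 (-0.09) and Myc (-0.26) were not called. By the mean of probe sets, Car3 gave -2.15 and Gas6 gave -2.80.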

How the data were processed

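The 4 arrays of MEF and neural stem cells and the other 49 arrays hybridised biotinylated cRNA from Trizol-extracted total RNA to mouse arrays from Affymetrix (per the labels' protocols). The values are the authors' deposited linear intensity per probe set, from 0.4 to 33985.9; summarisation and scaling are not given in the sources used here. Of 45037 probe sets 34945 had 1 gene symbol in GEO's platform annotation, 932 several and 9160 none, which gave 18193 genes. Log2 of the deposited intensity + 32 was fitted in R 4.3.3 with limma 3.58.1 (lmFit, eBayes) on 15 group means, after keeping genes above the array's median in at least 2 of 53 arrays. Figures were drawn with python 3.11.15 and matplotlib 3.10.9, and the fit was tested on simulated data. Named genes were the 15 largest rises and falls, up to 4 called members with the smallest p of each role and direction in 44 lists, set markers and Hox genes, 293 in all; 25 more called genes, and 5 that differed between replicate arrays, were named after their values were seen, as said beside them. Some genes stand in several lists. The members and lists were chosen with earlier results of these data known. The main fit did not pair arrays by replicate number, and replicate differences of the 2 groups correlated at 0.07. With 1 such difference a group, this cannot decide whether arrays of the same number were handled together. In all, 21 alternative settings were tried.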

Additional observations from a re-analysis of the deposited data

How the results depend on the processing

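Of 2569 genes called, the count was 1620 with a pseudocount 4 times as large (935 higher, 685 lower), 5917 with no minimum fold (3232 higher, 2685 lower) and 782 with a 4-fold minimum (488 higher, 294 lower). The other settings that kept all 4 arrays gave 1984 to 3080, and leaving out 1 array gave 2437 to 2568, with 1331 to 1589 higher and 976 to 1161 lower. Genes higher in MEF made up 53.4% (without MEF 2) to 62.4% (4-fold minimum) of those called, the median of all genes lay between -0.03 and 0.06, and 0 called genes changed direction between called sets. By their titles, MEF and neural stem cell arrays share only replicate numbers. With the replicate block 2566 genes were called. The block within only the 4 arrays, added after seeing the data, gave 2590. Of the 293 genes named by rule, 49 lost their call with the larger pseudocount, 108 under the 4-fold minimum, 36 of 288 with the mean of probe sets, and 10 to 15 when 1 array was left out. Some of the 293, such as Pou5f1, Nanog, Ezh2, Cdkn2a and most Hox genes, were not called and had no call to lose. Lists with at most 2 genes called in a direction gained or lost 1 or 2 calls under several settings. Shmt1 turned to 0.11 with the probe set of highest mean log2 in the 4 arrays, and the cause was not tested. Of the 25 genes added after their values were seen, 5 lost their call with the larger pseudocount and 4 with the mean of probe sets. Dim signals, 2 arrays a group and an unstated normalisation limit what small differences show.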

Other observations

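Genes of sex chromosomes, glucose use and immediate early response were measured as well. Eif2s3y, on the Y chromosome, had 503 and 620.4 in MEF, against 25.8 and 23.8 in neural stem cells (3.38 ± 0.97), and 2.06 with its 2 probe sets averaged. Uty, also on the Y, had 184 and 202 in MEF, against 23.7 and 30.2 in neural stem cells (1.93 ± 0.60), which was not called without neural stem cell array 1 and gave 1.10 by the mean of its probe sets. Of 4 X and Y genes tested, these 2 were higher and 2 were not called. Signal of these Y genes differed along with cell type, so sex and cell type cannot be told apart. Of 22 glycolysis and hypoxia genes 3 were higher in MEF and 3 lower, with 5 higher in a fit of only the 4 arrays. Slc2a3, the neuronal-type glucose transporter, had 18 and 23.4 in MEF, against 211 and 198 in neural stem cells (-2.17 ± 0.11), and -1.05 with the mean of its probe sets. The phosphofructokinase Pfkp (3.31 ± 0.40) and the enolase Eno2 (2.48 ± 0.17) were higher. Of 17 immediate early genes 7 were higher and 1 lower. Fosl1 had 372 and 387 in MEF, against 57.6 and 47.7 in neural stem cells (2.28 ± 0.18), and Jun had 280.4 and 330 in MEF, against 974 and 985 in neural stem cells (-1.59 ± 0.38), with -0.83 and no call by the mean of its probe sets. Pfkp gave 1.61 by that mean.

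Receptors of 2 ligands that differed were looked up after the values were seen. Ackr3, a receptor of Cxcl12, had 1150.2 and 1325 in MEF, against 8.6 and 11.2 in neural stem cells (4.92 ± 0.43), and Cxcr4, the other receptor, had 20.8 and 29.2 in MEF, against 93.8 and 77.4 in neural stem cells (-1.05 ± 0.27), which was not called without MEF 1 or without neural stem cell array 1, nor with the larger pseudocount, quantile normalisation or centred arrays. Tyro3, a receptor of Gas6 as Axl is, had 138 and 146 in MEF, against 352 and 321 in neural stem cells (-1.08 ± 0.33), and was not called with the larger pseudocount or the mean of its probe sets. Mertk, the third such receptor, was not called (-0.32).

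A few genes differed widely between arrays of 1 group, also singled out after their values were seen. Hr had 68.5 and 66.7 in MEF, against 15495 and 27.8 in neural stem cells, and Fkbp15 had 294 and 312 in MEF, against 11623 and 197 in neural stem cells, so the groups overlapped although both genes were called lower. The gene 2310043M15Rik had 67.4 and 659 in MEF and 74.7 and 64.5 in neural stem cells, with overlap and a call of higher. Tnik differed between the neural stem cell arrays without overlap of the groups, with 126 and 120.4 in MEF, against 844 and 3162 in neural stem cells, and Emilin3 had 120.4 and 138 in MEF, against 116 and 1 in neural stem cells.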
